A study of Acomys cahirinus and Mus musculus with 10 samples.

Results

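Chemokines are small secreted proteins that guide leukocytes and other motile cells along gradients. They are sorted by the spacing of their first cysteines, which are adjacent in CC ligands and separated by a single residue in CXC ligands, and they act on receptors that span the membrane and signal through inhibitory G proteins. After skin injury, CC ligands acting on *Ccr2* are known for recruiting monocytes, CXC ligands that carry a Glu-Leu-Arg (ELR) motif act on *Cxcr2* of neutrophils, and *Cxcl12* holds or attracts cells that carry *Cxcr4*. The 10 genes described here are the CC ligands *Ccl2*, *Ccl7* and *Ccl8*, the ELR CXC ligands *Cxcl1* and *Cxcl5*, the CXC ligands of resting skin *Cxcl12* and *Cxcl14*, and the receptors *Ccr2*, *Cxcr2* and *Cxcr4*. They were taken by symbol and not by a cut on any measured value, but with earlier results of these data known. All 10 were found among 17532 named *M. musculus* genes, and 9 of them belonged to the 11500 gene pairs that had a value in every comparison of both species. No component of the *A. cahirinus* assembly aligned to *Ccl8*, with 0 alignments in the deposited search, so *Ccl8* was measured in *M. musculus* only.

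RNA was sequenced from the ear pinna of the spiny mouse *A. cahirinus* and of CD1 *M. musculus*, uninjured (D0) and 5, 10, 15 and 20 days after a 4-mm punch through the ear (D5 to D20). All animals were sexually mature females with no other treatment, and according to the methods of the study 3 animals per species and day gave a ring of tissue just proximal to the healing margin. The comparison within a species asks which genes move after injury, and the comparison between species sets an ear that closes such a hole by regeneration against one that heals with a scar. The deposited tables give, for each gene and day, a fold change against D0 and a posterior probability that the groups differ. A change counts as called where that probability was 0.95 or more, and "rose" and "fell" are used of such changes.

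The reads behind those fold changes were recovered for each library from the steps in the values, which was possible for 77 of the 95 group values of these genes. They are given as normalised reads, that is reads divided by the size factor of the library, on 1 scale per species. For the other groups only the mean is given. Libraries carry no animal name, so their order within a group means nothing, and levels are not comparable between species because each was mapped to its own reference. The *A. cahirinus* D15 group held 2 distinct libraries. Over 4691 genes the median ratio of their reads was 1.23, against 1.23 if 1 of them had entered the authors' mean 2 times and 0.613 if both had entered once, and the library values of the group are therefore given here with n = 2. The deposited fold changes and posterior probabilities of that day, and the D15 group means of other genes than the 10, come from the authors' group with 1 library entered 2 times. Normalised reads summed to 15624105 to 16243440 per group for *A. cahirinus* and to 8629308 to 9485444 for *M. musculus*. The scaling of the tables left the median gene pair 0.21 higher at D5 and 0.11 higher at D10 than at D0 on the log2 scale in *A. cahirinus*, and between −0.03 and 0.06 in the other 6 comparisons. In such bulk tissue, fewer cells of a type and less RNA per cell cannot be told apart.

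The stretch around the paired cysteines of each ligand, and around the Asp-Arg-Tyr motif of each receptor, is printed because it defines the family and shows that the *A. cahirinus* component carries the same motif. Mouse sequences are from the GENCODE transcripts on GRCm38 (mm10), *A. cahirinus* sequences are from the deposited assembly, and capitals mark the codons of the paired cysteines or of Asp-Arg-Tyr. *Ccl2* (chr11:82035571-82037453), *Ccl7* (chr11:82045712-82047525) and *Ccl8* (chr11:82115185-82116799) lie on the plus strand in 1 cluster, and their windows are coding, in exon 2 for *Ccl2* (chr11:82036488-82036532) and *Ccl7* (chr11:82046520-82046564) and across exons 1 and 2 for *Ccl8*.
*Ccl2*, *M. musculus*: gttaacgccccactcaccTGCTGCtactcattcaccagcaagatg
*Ccl2*, *A. cahirinus*: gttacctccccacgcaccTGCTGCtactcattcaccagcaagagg
*Ccl7*, *M. musculus*: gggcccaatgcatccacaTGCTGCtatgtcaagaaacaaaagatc
*Ccl7*, *A. cahirinus*: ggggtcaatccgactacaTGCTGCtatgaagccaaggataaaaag
*Ccl8*, *M. musculus*: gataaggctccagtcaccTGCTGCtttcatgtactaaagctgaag
The *Ccl2* windows shared 41 of 45 bases, while the *Ccl7* windows could not be aligned without a gap. Over the aligned coding sequence the identity between species was 84.3% for *Ccl2* and 85.1% for *Ccl7*.

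*Cxcl1* (chr5:90891241-90893115) and *Cxcl5* (chr5:90759378-90761624) lie on the plus strand of another cluster, and their windows are coding bases of exon 2 (chr5:90891478-90891525 and chr5:90759709-90759756). The gagctgcgc or gagctgcgt just before the capitals encodes the ELR motif, which *Cxcl12* (chr6:117168535-117181367, plus strand, window in exon 2) and *Cxcl14* (chr13:56288643-56296551, minus strand, window across exons 1 and 2) lack.
*Cxcl1*, *M. musculus*: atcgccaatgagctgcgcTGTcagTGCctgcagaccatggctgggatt
*Cxcl1*, *A. cahirinus*: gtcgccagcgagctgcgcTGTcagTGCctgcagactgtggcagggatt
*Cxcl5*, *M. musculus*: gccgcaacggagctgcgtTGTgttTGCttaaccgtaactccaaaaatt
*Cxcl5*, *A. cahirinus*: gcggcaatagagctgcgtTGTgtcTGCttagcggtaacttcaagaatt
*Cxcl12*, *M. musculus*: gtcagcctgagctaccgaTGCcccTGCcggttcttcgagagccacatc
*Cxcl12*, *A. cahirinus*: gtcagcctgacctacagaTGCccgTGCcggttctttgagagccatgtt
*Cxcl14*, *M. musculus*: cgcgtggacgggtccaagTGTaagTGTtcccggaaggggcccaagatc
*Cxcl14*, *A. cahirinus*: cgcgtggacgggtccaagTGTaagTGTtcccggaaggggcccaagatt
The windows shared 42 of 48 bases in *Cxcl1*, 40 in *Cxcl5*, 41 in *Cxcl12* and 47 in *Cxcl14*, and over the aligned coding sequence *Cxcl14* was the most alike of the 9 pairs, at 97.3%.

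The receptors were *Ccr2* (chr9:124101950-124113557, plus strand), *Cxcr2* (chr1:74153989-74161246, plus strand) and *Cxcr4* (chr1:128588199-128592290, minus strand), with windows in exon 3, exon 2 and exon 2, all coding.
*Ccr2*, *M. musculus*: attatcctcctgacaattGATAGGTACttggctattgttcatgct
*Ccr2*, *A. cahirinus*: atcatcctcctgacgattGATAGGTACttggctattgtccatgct
*Cxcr2*, *M. musculus*: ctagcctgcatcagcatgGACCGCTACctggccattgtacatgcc
*Cxcr2*, *A. cahirinus*: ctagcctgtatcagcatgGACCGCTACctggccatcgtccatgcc
*Cxcr4*, *M. musculus*: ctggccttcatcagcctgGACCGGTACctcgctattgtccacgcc
*Cxcr4*, *A. cahirinus*: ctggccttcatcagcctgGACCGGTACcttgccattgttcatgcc
The windows shared 42 of 45 bases in *Ccr2* and *Cxcr2* and 41 in *Cxcr4*. The component of *Cxcl1* also aligned to *Cxcl2* at a lower bit score (281 against 153), and that of *Cxcr2* to *Cxcr1* (1021 against 137).

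In *A. cahirinus*, 7 of the 9 measured genes were called higher at D5, while 31.9% of the 11500 gene pairs were. At D10, 7 were called higher against a background of 21.9%, at D15 6 against 18.8%, and at D20 5 against 13.2%. *Cxcl12* was called lower at D10, D15 and D20, where the background of lower calls was 11.6%, 14.5% and 15.2%. In *M. musculus*, 9 of 10 were called higher at D5 (background 24.3%), 7 at D10 (22.2%) and 7 at D15 (18.9%). At D20 there were 4 (17.4%), and at no day was one called lower. For the genes together, the median log2 fold change over the days was 3.46, 1.86, 1.64 and 1.07 for *A. cahirinus*. For *M. musculus* it was 2.22, 1.61, 1.73 and 1.26, beside the medians of all pairs given above.

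Where the reads per library were known, the libraries after injury could be set against those of D0. In *A. cahirinus* all D5 libraries lay above all D0 libraries for 7 of 8 genes and below for 1. Of the 7649 genes with known reads at D0 and D5 and a mean of at least 1, 31.9% and 34.4% did so. The other backgrounds of this kind were counted alike. At D10 all lay above for 6 of 6 (background 30.8%), at D15 for 7 of 9 with 1 below (36.4% and 33.8%), and at D20 for 5 of 8 with 1 below (31% and 29.2%). In *M. musculus* they lay above for 6 of 6 genes at D5 (28.6%), 5 of 7 at D10 (27.2%), 5 of 7 at D15 (25.5%) and 6 of 7 at D20 (24.4%).

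As a second reading, the recovered reads were fitted with limma on log2(normalised reads + 1), with p-values adjusted over all genes fitted. It called 8 of the 8 *A. cahirinus* genes that could be fitted at D5 (background 62.4% in either direction), 6 of 6 at D10 (53.7%), 7 of 9 at D15 (54.3%) and 6 of 8 at D20 (54.8%). In *M. musculus* it called 4 of 6 at D5 (51%), 5 of 7 at D10 (45.2%), 5 of 7 at D15 (46.1%) and 5 of 7 at D20 (39.2%). The posterior probability was near 0 for some genes whose libraries stood apart. Of the genes limma called at 2-fold or more, 22.2% to 32.4% had a posterior probability under 0.05 over the 8 comparisons, and the cause of this was not tested.

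*Ccl2*, the best known attractant of monocytes, rose at every day in *A. cahirinus*. Its normalised reads were 25.7, 21.3 and 28.0 in the D0 libraries and 345, 382 and 401 at D5. They were 130, 121 and 113 at D10, 89.7 and 121 at D15, and 113, 78.7 and 112 at D20. All libraries of each day lay above all D0 libraries, the highest were those of D5, and D15 and D20 overlapped. The log2 fold changes of the 4 days were 4.09, 2.35, 2.17 and 1.95, and limma gave 3.86 at D5 (SE 0.155, adjusted p = 8.62e-12).

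In *M. musculus*, *Ccl2* was at 5.85, 3.98 and 9.33 in the D0 libraries, 54.8, 56.7 and 52.0 at D5, and 61.7, 24.1 and 39.9 at D10. The D15 libraries held 62.4, 28.7 and 39.0, and those of D20 18.6, 24.6 and 23.5. Each day lay above D0, and the libraries of D5, D10 and D15 overlapped each other. It was called higher at D5 (log2 fold change 3.02), D10 (2.69) and D15 (2.72). At D20 the posterior probability was 6.39e-06 beside a log2 fold change of 1.77, whereas limma gave 1.71 (adjusted p = 0.00117).

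*Ccl7*, which shares the receptor *Ccr2* with *Ccl2*, also rose at all 4 days in *A. cahirinus*. The D0 libraries held 49.7, 39.7 and 45.3 normalised reads and the D5 libraries 545, 514 and 584. At D10 the values were 368, 338 and 309, at D15 183 and 271, and at D20 200, 184 and 209. The days stood in the order D5, D10, then D15 and D20 together, with D5 and D10 apart from each other and from the rest. Log2 fold changes were 3.80, 2.99, 2.46 and 2.08, and the adjusted p of limma ran from 1.88e-12 at D5 to 3.10e-09 at D15.

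In *M. musculus*, *Ccl7* was at 21.1, 18.6 and 23.3 at D0, 63.8, 88.5 and 87.5 at D5, and 66.8, 51.0 and 69.6 at D10. The D15 values were 75.2, 51.0 and 61.7, and the D20 values 38.7, 46.6 and 30.6. All libraries after injury lay above D0, those of D5, D10 and D15 overlapped, and those of D20 lay below them. It rose by 1.91, 1.60 and 1.59 on the log2 scale at D5, D10 and D15. The D20 value, 0.91, had a posterior probability of 7.10e-08 and an adjusted p of 0.00490 in limma.

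*Ccl8*, another CC ligand of monocytes and lymphocytes, had the highest level per length of the 3 CC ligands in *M. musculus* at each day and rose at all 4 days. It was at 49.1, 58.4 and 46.7 normalised reads at D0 and at 396, 672 and 665 at D5. At D10 it was 391.8, 171 and 284, at D15 250, 263 and 155, and at D20 129, 225 and 121. Each day was separate from D0, and neighbouring days from D10 on overlapped. The log2 fold change was 3.49, 2.49, 2.14 and 1.66 in turn, with an adjusted p in limma of 5.73e-07 at D5 and 0.000853 at D20.

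**Figure D1:**
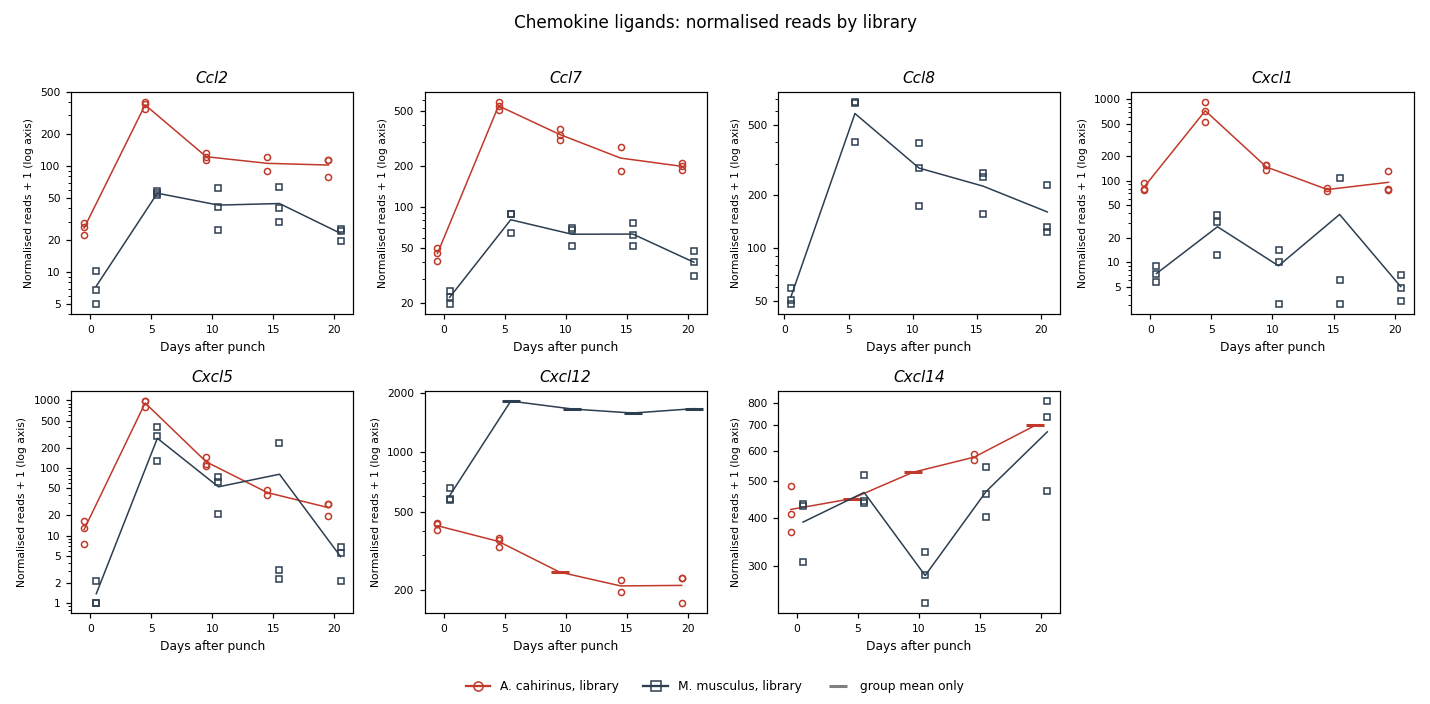
Normalised reads + 1 (log axis) of each ligand by days after the punch, 1 point per library where the reads were recovered and a dash for the mean otherwise, with lines through the group means of *A. cahirinus* (circles) and *M. musculus* (squares). *Ccl7* reached 514 to 584 at D5 in *A. cahirinus*, and the single high D15 library of *M. musculus* stands out for *Cxcl1* and *Cxcl5*.

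*Cxcl1*, an ELR ligand that draws neutrophils, rose for a short time in *A. cahirinus*. It was at 78.0, 76.5 and 93.8 normalised reads at D0 and at 705, 526 and 915 at D5. At D10 it was 133, 153 and 153, at D15 72.6 and 81.0, and at D20 77.7, 76.4 and 129. The D5 and D10 libraries lay above D0, and those of D15 and D20 overlapped it. The log2 fold change was 3.31 at D5 and 0.90 at D10, both called, and then −0.04 and 0.13. limma gave 3.07 (SE 0.194, adjusted p = 9.80e-10) at D5 and 0.81 (adjusted p = 0.00201) at D10.

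In *M. musculus*, *Cxcl1* held few reads. It was at 4.68, 7.96 and 6.22 at D0, 30.5, 36.8 and 11.4 at D5, and 9.09, 2.07 and 13.1 at D10. At D15 it was 106, 2.12 and 5.04, and at D20 3.87, 5.93 and 2.35. Only the D5 libraries were all above D0, and at D15 1 library was high while the others lay within or below the D0 range. *Cxcl1* was called higher at D5 (log2 fold change 1.99), where limma did not call it (1.78, SE 0.967, adjusted p = 0.139). Its values of 0.38, 2.52 and −0.55 at D10, D15 and D20 were not called.

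*Cxcl5*, the other ELR ligand, had the highest log2 fold change at D5 of the 6 ligands measured in *A. cahirinus* and of the 7 in *M. musculus*, where it held 1 read at D0. In *A. cahirinus* it was at 12.01, 15.5 and 6.47 normalised reads at D0 and at 978, 808 and 965 at D5. At D10 it was 108, 114 and 146, at D15 38.4 and 46.5, and at D20 28.5, 28.2 and 18.4. The groups did not overlap at any day and came in the order D5, D10, D15, D20, D0. It rose by 6.50, 3.49 and 1.96 on the log2 scale at D5, D10 and D15, with an adjusted p in limma of 5.69e-12 at D5. At D20 the value of 1.07 had a posterior probability of 3.53e-09, and limma gave 1.13 (adjusted p = 0.000849).

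In *M. musculus*, *Cxcl5* had 1 read over the 3 D0 libraries, at 1.17, 0 and 0 normalised reads. It was at 398, 299 and 128 at D5, 74.0, 19.98 and 61.7 at D10, 237, 2.12 and 1.26 at D15, and 4.65, 5.93 and 1.18 at D20. The D5 and D10 libraries were all far above D0, while 1 D15 library was within the D5 range and the others lay close to D0. Counted over the libraries, 845 reads at D5 gave a ratio of 654 to D0, with an exact 95% interval for counting error alone of 117 to 25881. The ratio was 117 at D10 (20.9 to 4658), 208 at D15 (37.0 to 8243) and 9.49 at D20 (1.44 to 401). It was called higher at D5, D10 and D15 with deposited log2 fold changes of 8.41, 6.20 and 6.63, and limma gave 7.59 (SE 1.25, adjusted p = 0.000144) at D5 and 3.20 (adjusted p = 0.0483) at D15. At D20 the value of 2.48 was not called.

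The *M. musculus* D15 values of both ELR ligands came from 1 library. Without it, the log2 fold change of *Cxcl1* with a pseudocount of 1 was −0.67 and that of *Cxcl5* 0.95. In the same library *Cxcl2*, a further ELR ligand, was at 62.4 normalised reads against 0 and 2.52 in the others, and the neutrophil markers *S100a8* and *S100a9* were at 1209 and 1698 against 8.49 to 22.7. Of the 8 neutrophil markers with known reads at D15, 5 were highest in this library, *Retnlg*, *Mmp8* and *Ltf* among them at 3.67 to 8.26, while *Mpo* (5.50 against 8.49 and 7.55), *Ngp* (2.75 against 0 and 3.78) and *Camp* (0 against 0 and 2.52) were not. *Il1b*, an inflammatory cytokine, was at 534 against 23.4 and 13.8. *Ccl2*, at 62.4 against 28.7 and 39.0, was less apart, and *Ccl8*, at 250 against 263 and 155, was not highest in it. Of 7 monocyte and macrophage markers, *Cd14* (272 against 56.3 and 68.0) and *Itgam* (549.6 against 319.6 and 375) were highest in this library, and 5 were not, such as *Csf1r* at 956 against 1091 and 1017. Of 7426 genes, 45 (0.606%) were at least 4-fold above both other libraries in this one, and 0 and 6 in the other two. The part of these marker genes in the result was not tested.

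**Figure D2:**
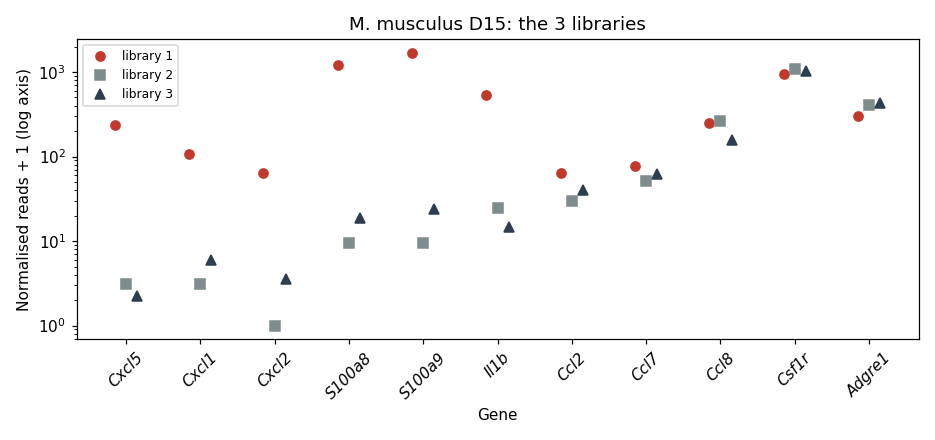
Normalised reads + 1 (log axis) of chemokine genes and of neutrophil, macrophage and cytokine genes in the 3 *M. musculus* D15 libraries, 1 point per library. Library 1 is high for *Cxcl1* (106), *Cxcl5* (237), *S100a8* (1209) and *S100a9* (1698) and within the range of the others for *Ccl8* (250).

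*Cxcl12*, a ligand made by stromal cells of resting tissue, moved in opposite directions in the 2 species. In *A. cahirinus* it was at 431, 435 and 403 normalised reads at D0, 360, 330 and 366 at D5 and a mean of 246 at D10. At D15 it was 223 and 195, and at D20 170, 230 and 230. All D5, D15 and D20 libraries lay below all D0 libraries, and D15 and D20 overlapped. The log2 fold change fell by 0.69 at D10, by 1.01 at D15 and by 1.06 at D20. At D5 it was −0.06 and not called, while limma called a fall of −0.27 (SE 0.106, adjusted p = 0.0411). With values set relative to the median gene pair, the D5 value was −0.28. In *M. musculus*, *Cxcl12* was at 578, 569 and 658 at D0 and at group means of 1819, 1659, 1581 and 1665 at D5 to D20, and it rose by 1.60, 1.499, 1.43 and 1.51 on the log2 scale. The *A. cahirinus* component is 809 bases long against 5670 for the longest *M. musculus* transcript, so reads were counted over a much shorter stretch in *A. cahirinus*. The *M. musculus* name of *Cxcl12* rests on its place in the annotation order. The probability of that place was 0.888, the lowest of the 10 genes, against 0.992 or more for the others.

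*Cxcl14*, a ligand made by epidermis and fibroblasts, changed by less than 2-fold at each day, and its mean was highest at D20 in both species. In *A. cahirinus* it was at 367, 409 and 484 at D0, at means of 448 and 526 at D5 and D10, at 586 and 566 at D15 and at a mean of 698 at D20. It was called higher at D15 (log2 fold change 0.49) and D20 (0.68), where both D15 libraries lay above D0. In *M. musculus* it was at 434, 428 and 305 at D0, 443, 516 and 438 at D5, and 324, 283 and 238 at D10. Later it was 544, 461 and 400 at D15 and 737, 469 and 808 at D20. The D10 and D15 libraries overlapped those of D0, and those of D5 and D20 lay above them. No day was called, with log2 fold changes of 0.26, −0.43, 0.30 and 0.82, and limma called D20 alone (0.77, adjusted p = 0.00483).

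**Figure D3:**
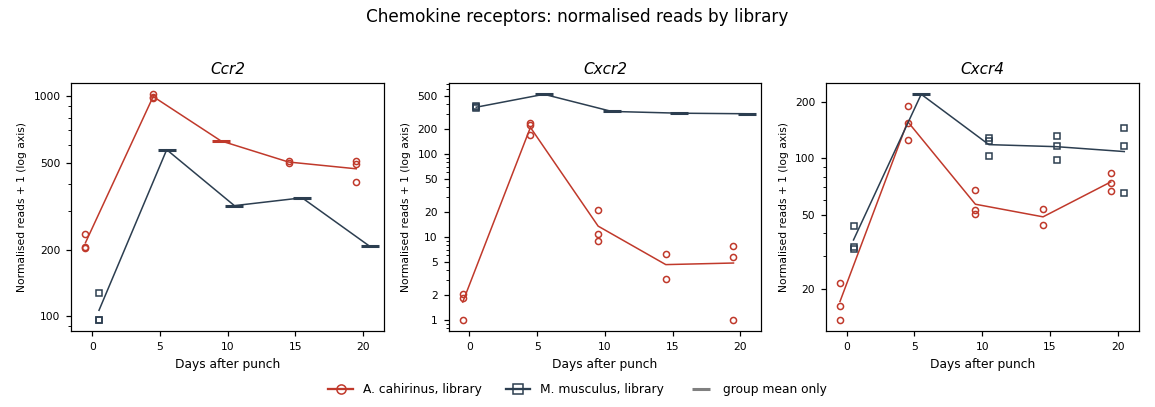
Normalised reads + 1 (log axis) of *Ccr2*, *Cxcr2* and *Cxcr4* by days after the punch, 1 point per library where the reads were recovered and a dash for the mean otherwise, with lines through the group means of each species. *Cxcr2* ran from 0 to 1.08 at D0 to 166 to 238 at D5 in *A. cahirinus*, and from 354 to 376 at D0 to a mean of 523 at D5 in *M. musculus*.

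*Ccr2*, the receptor of *Ccl2* and *Ccl7* on monocytes, rose at all 4 days in both species. In *A. cahirinus* it was at 206, 234 and 203 normalised reads at D0, 989, 1021 and 981 at D5 and a mean of 626 at D10. At D15 it was 497 and 507, and at D20 489, 408 and 505. All libraries with known reads lay above D0, and D15 and D20 overlapped. In *M. musculus* it was at 126, 94.9 and 94.9 at D0 and at means of 571, 317, 344 and 207 at the 4 days. The log2 fold changes of the 4 days were 2.42, 1.63, 1.27 and 1.07 for *A. cahirinus*, and for *M. musculus* 2.44, 1.62, 1.74 and 1.01. In *A. cahirinus*, limma gave 2.21 at D5 (SE 0.0801, adjusted p = 1.96e-11).

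*Cxcr2*, the neutrophil receptor of ELR ligands, had 2 reads over the *A. cahirinus* D0 libraries, at 0.858, 0 and 1.08 normalised reads. It was at 238, 166 and 219 at D5, at 7.97, 9.74 and 19.9 at D10, at 2.14 and 5.17 at D15, and at 6.89, 4.70 and 0 at D20. The D5 libraries stood far above all others, those of D10 lay between, and those of D20 overlapped D0. Counted over the libraries, 596 reads at D5 gave a ratio of 323 to D0 (exact 95% interval 89.1 to 2676), 43 reads at D10 a ratio of 18.6 (4.84 to 158), 8 reads at D15 a ratio of 5.96 (1.19 to 57.6) and 11 reads at D20 a ratio of 6.82 (1.49 to 63.4). It rose at D5 and D10, with deposited log2 fold changes of 7.84 and 3.76, and limma gave 7.04 (SE 0.602, adjusted p = 3.46e-08) and 3.01 (adjusted p = 0.000483).

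In *M. musculus*, *Cxcr2* was already at 364, 354 and 376 normalised reads at D0, and its group means were 523 at D5 and 324, 309 and 304 at D10, D15 and D20. It rose at D5 by 0.52 on the log2 scale, and the later values of −0.13, −0.20 and −0.22 were not called. Its high uninjured level went with few reads of other neutrophil genes. *S100a8* and *S100a9* had D0 means of 6.77 and 6.09 normalised reads (0.778 and 2.104 without the highest library of each), and *Csf3r*, the receptor of granulocyte colony-stimulating factor, 55.5. The deposited gene number of *Cxcr2* carries no name, and the name rests on its place in the annotation order, next to the number of *Cxcr1*. The probability of that place was 1, but these values may still not be those of *Cxcr2*. Of the 2994 windows of 50 bases in its longest transcript, 54 (1.8%) also occur in transcripts of other genes.

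*Cxcr4*, the receptor of *Cxcl12* on leukocytes and other cells, rose at all 4 days in both species. In *A. cahirinus* it was at 20.6, 12.6 and 15.1 at D0, 154, 125 and 191 at D5, and 49.3, 66.6 and 51.7 at D10. At D15 it was 42.7 and 52.6, and at D20 82.6, 72.8 and 66.0. All libraries after injury lay above D0, and the D20 libraries lay above those of D15. In *M. musculus* it was at 31.6, 42.4 and 32.7 at D0, a mean of 220.0 at D5, 122.6, 102 and 128 at D10, 132, 96.6 and 116 at D15, and 144, 64.4 and 115 at D20, all above D0. Log2 fold changes were 3.46, 1.86, 1.64 and 2.12 for *A. cahirinus*, and for *M. musculus* 2.62, 1.75, 1.71 and 1.63. With the reads of both *A. cahirinus* components that aligned best to *Cxcr4* summed, the values were 2.78 at D5, 1.33 at D10 and 1.54 at D20. In limma the adjusted p was 8.42e-10 at D5 in *A. cahirinus* and 9.77e-05 at D10 in *M. musculus*.

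**Figure D4:**
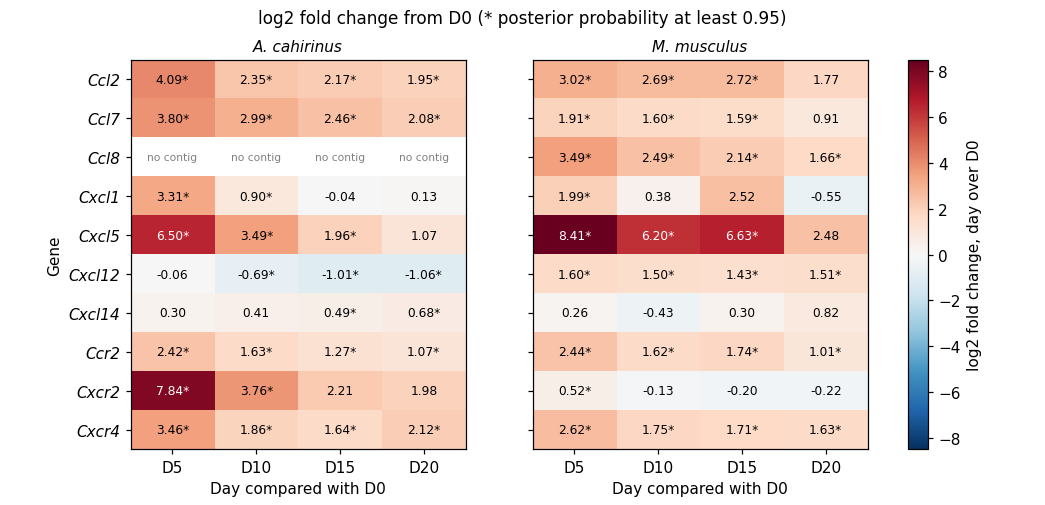
Deposited log2 fold change against D0 (colour scale and printed value) of each gene at each day, for *A. cahirinus* in the left panel and *M. musculus* in the right, with an asterisk at a posterior probability of 0.95 or more. *Cxcl12* is negative in *A. cahirinus* and positive in *M. musculus* at all 4 days. *Cxcr2* differs most at D5 (7.84 against 0.52), and the *M. musculus* names of both genes rest on annotation order.

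The change in *A. cahirinus* minus the change in *M. musculus* was tested in limma for the genes with known reads at D0 and at the day compared in both species, with p adjusted over all gene pairs fitted. Of the 4, 5, 6 and 5 genes that could be tested at D5 to D20, *Ccl7* was the one past an adjusted p of 0.05, at every day, beside a background of 36.4%, 28.5%, 29.2% and 31.8% of pairs in either direction. Its change was larger in *A. cahirinus* by 1.71 on the log2 scale at D5 (95% interval 1.204 to 2.22, adjusted p = 6.73e-06) and by 1.37 at D10 (0.86 to 1.87, adjusted p = 0.000163). It was larger by 0.77 at D15 (0.23 to 1.31, adjusted p = 0.0288) and by 1.28 at D20 (0.77 to 1.79, adjusted p = 0.000295). The D15 call was lost when any of 4 libraries was left out, namely *A. cahirinus* D0 library 2, *A. cahirinus* D15 library 2, *M. musculus* D0 library 3 or *M. musculus* D15 library 2. Without its library 2 the *A. cahirinus* D15 group held 1 library, which was assumed to vary like those of the other groups. With *M. musculus* D0 library 2 left out at D5, or *M. musculus* D20 library 1 at D20, a second gene passed.

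For *Ccl2* the difference was 0.89 at D5 (95% interval 0.07 to 1.71, adjusted p = 0.0821) and then −0.26, −0.56 and 0.26, and limma called none. The intervals of the ELR ligands were wide. At D5 the difference was 1.29 for *Cxcl1* (−0.91 to 3.49, adjusted p = 0.369) and −1.30 for *Cxcl5* (−4.17 to 1.57, adjusted p = 0.505). For *Cxcr4* it was 0.04 at D10 (−0.65 to 0.74), −0.13 at D15 and 0.64 at D20 (−0.05 to 1.33, adjusted p = 0.1499). For *Cxcl14* it was 0.19 at D15 (−0.37 to 0.75). *Cxcl12*, *Ccr2* and *Cxcr2*, whose *M. musculus* reads were not recovered at any day after D0, were not tested, nor was *Cxcr4* at D5 or *Cxcl14* at D5, D10 or D20.

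As a description over the 4 days, the mean of the deposited *A. cahirinus* minus *M. musculus* log2 fold change was above 0 for 5 of 9 genes. It was 3.96 for *Cxcr2*, 1.33 for *Ccl7*, 0.34 for *Cxcr4*, 0.23 for *Cxcl14* and 0.09 for *Ccl2*. It was −0.01 for *Cxcl1*, −0.11 for *Ccr2*, −2.22 for *Cxcl12* and −2.68 for *Cxcl5*. The *Cxcr2* and *Cxcl12* values rest on *M. musculus* names given by annotation order, with a probability of the place of 1 and 0.888. The *Cxcl5* value holds a D15 difference of −4.66 that came with the 1 high *M. musculus* library, and a *M. musculus* D0 of 1 read. For *Cxcl5*, limma gave −1.30, −1.77, −1.31 and −0.64 over the days, none of them called, and the mean with summed components was −1.63. Every comparison of a species shares its D0 libraries, so these 4 days are not independent. The sign for *Cxcr4* turned with summed components (−0.18), and that for *Cxcl1* with a pseudocount of 1 (0.036).

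**Figure D5:**
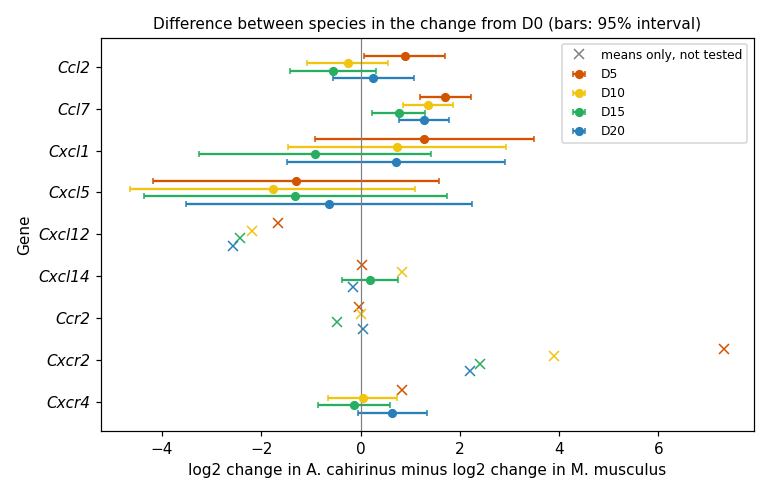
Difference in log2 change, *A. cahirinus* minus *M. musculus*, by gene and day, as the limma estimate (circle) with its 95% interval (bar) where the reads allowed a test and as the difference of the deposited values (cross) elsewhere. The intervals of *Ccl7* lie above 0 at all 4 days, from 0.23 to 2.22, while those of *Cxcl1* and *Cxcl5* cross 0.

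Levels of different genes were set side by side as normalised reads per kilobase of reference sequence. In *A. cahirinus* at D0 the order was *Cxcl12* (523), *Cxcl14* (300.01), *Cxcl1* (88.0), *Ccr2* (60.5), *Ccl7* (51.5), *Ccl2* (30.9), *Cxcr4* (13.2), *Cxcl5* (12.6) and *Cxcr2* (0.514). At D5 *Cxcl5*, *Cxcl1* and *Ccl7* were highest, at 1018, 760.3 and 627 per kilobase. At D20 *Cxcl14* (498) and *Cxcl12* (259.8) were again at the top, followed by *Ccl7* (226). In *M. musculus* at D0 *Cxcl14* was at 213, *Cxcr2* at 119.9, *Cxcl12* at 106 and *Ccl8* at 101, and *Cxcl5* was lowest at 0.236. At D5 *Ccl8* was highest at 1130 per kilobase, *Cxcl12* followed at 321, and *Cxcl1* was lowest at 27.7. At D20 the order was *Cxcl14* (368), *Ccl8* (310.4) and *Cxcl12* (294), with *Cxcl5* lowest at 2.37. Neighbours such as *Cxcr4* and *Cxcl5* in uninjured *A. cahirinus* ears, and *Cxcl12* and *Ccl8* in uninjured *M. musculus* ears, do not differ beyond the spread of their libraries.

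The rest of the chemokine system was taken from lists by symbol. Over all 11500 gene pairs, 31.9%, 21.9%, 18.8% and 13.2% were called higher at D5, D10, D15 and D20 in *A. cahirinus* and 11.1%, 11.6%, 14.5% and 15.2% lower. In *M. musculus* 24.3%, 22.2%, 18.9% and 17.4% were called higher and 16.9%, 17.7%, 16.2% and 15.9% lower. The counts of the lists stand beside these shares, and counts close to them say nothing particular of a list. Of 10 further CC ligands measured in *A. cahirinus*, 4, 1, 0 and 0 were called higher at D5, D10, D15 and D20, and 0, 2, 3 and 2 lower. Of 12 in *M. musculus*, 3, 2, 2 and 1 were higher and 3, 3, 3 and 1 lower, so that the higher calls at D5 were at about the background of 24.3%. *Ccl6*, a macrophage ligand, had means of 296 normalised reads at D0 and 1081 at D5 in *A. cahirinus* (log2 fold change 2.07) and was called lower at D20 (−0.60). *Ccl11*, which attracts eosinophils, was called lower at all 4 days in *M. musculus*, with a mean of 90.2 at D0 and of 21.9 to 29.6 later. *Ccl9* rose there at D5 from a mean of 86.0 to 230.5.

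Of 7 further CXC and other ligands measured in *A. cahirinus*, 3, 1, 1 and 0 were called higher and none lower, with *Cxcl2* and *Cxcl3* represented by 1 shared component. Of 10 in *M. musculus*, 4, 2, 2 and 1 were higher and 0, 1, 1 and 0 lower. *Cxcl2* went from a mean of 0.391 normalised reads at D0 to 119, 13.1, 21.5 and 0.571 after injury in *M. musculus*, and the D15 value rests on the library described above. Without their highest library the *Cxcl2* means were 6.23 at D10 and 1.26 at D15. *Pf4*, a platelet and macrophage chemokine, rose to 873 at D5 from a mean of 195 in *A. cahirinus*, and to 248 from 66.4 in *M. musculus*.

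Of 9 further receptors measured in *A. cahirinus* by a component other than those of the 10 genes, 1, 3, 0 and 1 were called higher and none lower, and the higher calls at D5 were below the background of 31.9%. Of 14 such receptors in *M. musculus*, 4, 3, 2 and 1 were higher and 2, 2, 2 and 3 lower. *Ccr1*, a receptor of monocytes and neutrophils, rose to 366 at D5 from a mean of 14.1 in *A. cahirinus*, and to 222 from 4.65 in *M. musculus*. *Ccr4*, a receptor of skin-homing T cells, was called lower at all 4 days in *M. musculus*, with means of 195 at D0 and 55.3 at D15. Of the T cell markers, *Cd4* was called higher there at all 4 days, while *Cd8a*, with means of 25.5 (D0) and 13.2 (D15), was called at no day. Of 4 atypical receptors, which take up chemokines without G protein signalling, 1, 0, 0 and 0 were higher and 0, 0, 0 and 1 lower in *A. cahirinus*, and 1, 0, 0 and 0 were higher and 1, 2, 2 and 0 lower in *M. musculus*. *Ackr2*, which scavenges CC ligands, was at a mean of 131 at D0 and 48.7 at D5 in *M. musculus*.

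Of 5 cytokine and NF-kB genes, namely the cytokines *Il1a* and *Il1b*, the NF-kB subunit *Nfkb1* and the NF-kB inhibitors *Nfkbia* and *Tnfaip3*, 4, 3, 2 and 1 were called higher in *A. cahirinus* and none lower, while in *M. musculus* 2, 1, 2 and 1 were higher and 0, 3, 1 and 2 lower. *Il1b* had means of 4.80 normalised reads at D0 and 5110, 219, 43.1 and 44.7 after injury in *A. cahirinus*, and was called higher at all 4 days. Its D10 mean rests on library 3, at 512, and was 71.9 without it. In *M. musculus* it went from 7.67 to 424, 83.0, 189 and 10.04, and the D15 mean was 18.6 without the library described above. *Il1a* was called on 3 of the 4 days in *M. musculus*, with means of 138.6 at D0 and 57.5, 60.4 and 53.9 at D10, D15 and D20. Its means in *A. cahirinus* were 38.2 at D0, 247 at D5, 110 at D10 and 54.8 at D20. Of 6 genes that carry or, like *Rgs1* and *Rgs2*, end G protein signals of chemokine receptors, 6, 4, 5 and 2 were higher and 0, 1, 1 and 1 lower in *A. cahirinus*, and 4, 2, 3 and 2 were higher and none lower in *M. musculus*. The lower calls were of *Rgs2*. *Pik3cg*, a lipid kinase activated by these receptors, rose from a mean of 95.1 to 500.5 at D5 in *A. cahirinus*, and *Dock2*, a Rac activator of leukocytes, from 216 to 554 in *M. musculus*.

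Markers of the cells that carry these receptors were counted in the same way. Of 5 neutrophil markers measured in *A. cahirinus*, 3, 1, 1 and 0 were called higher and 0, 1, 1 and 1 lower, and their summed group means were 199 normalised reads at D0 and 1702, 286, 176 and 135 after injury. *Csf3r* was at 19.5, 851, 107, 67.2 and 39.3 in turn, and *Camp*, an antimicrobial peptide of neutrophil granules, fell from 42.7 at D0 to 4.08 at D20. Of 9 neutrophil markers in *M. musculus*, 3, 2, 2 and 0 were higher and 1, 1, 0 and 0 lower, with summed means of 92.8 at D0 and 4886, 1271, 1131 and 101 after injury, most of it *S100a9* and *S100a8*. The D15 sum rests on 1 library, without which the D15 means of *S100a8* and *S100a9* were 13.1 and 15.6. Over the 6 *M. musculus* markers with known reads in every library, which leave out *S100a8*, *S100a9* and *Csf3r*, the sum per library was 14.0 to 37.1 at D0, 16.2 to 25.4 at D5 and 12.3 to 13.1 at D10, all overlapping or below D0, and *Mpo* fell at D5 from a mean of 19.2 (12.3 without the highest library) to 2.84. The summed group means were highest at D5 in both species, as were those of *Cxcl1* in *A. cahirinus*, and of *Cxcl5* and *Cxcr2* in both, but at D10 and D15 the *M. musculus* sum was above D0 while *Cxcr2* was at 324 and 309 against 365. Their part in those results was not tested.

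Of 9 monocyte and macrophage markers, 8, 6, 5 and 1 were called higher and 0, 0, 0 and 1 lower in *A. cahirinus*, and 8, 7, 7 and 7 were higher and none lower in *M. musculus*. At D20 the 1 higher call in *A. cahirinus* was at about the background of 13.2%. Summed means were 6600 at D0 and 22684, 11967, 8709 and 7271 after injury in *A. cahirinus*. The corresponding sums for *M. musculus* were 3216, 10125, 6995, 6093 and 6785. *Ms4a7* rose from a mean of 49.8 to 968 at D5 in *A. cahirinus*. *Csf1r* rose from 701 to 1616 in *M. musculus*. These levels were, like those of *Ccl2*, *Ccl7* and *Ccr2*, highest at D5, and their part in those results was not tested.

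The other cell type lists were called as follows, in the order D5, D10, D15 and D20. Of 6 endothelial markers, 1, 1, 1 and 0 were higher and 1, 1, 2 and 4 lower in *A. cahirinus*, and 5, 2, 3 and 3 were higher and none lower in *M. musculus*. For *A. cahirinus* the backgrounds were 13.2% to 31.9% higher with 11.1% to 15.2% lower, and for *M. musculus* the share called higher ran from 17.4% at D20 up to 24.3% at D5. Among them *Pecam1* was at a mean of 1671 at D0 and 934 at D20 in *A. cahirinus* and at 464 and 741 in *M. musculus*, the same directions as *Cxcl12*. *Vwf* went the other way in *A. cahirinus*, from a mean of 730.0 at D0 to 1116, 1404, 1192 and 899.9, and was called higher at D5, D10 and D15. The part of these markers in the *Cxcl12* result was not tested. Of 2 T cell markers, 1, 0, 0 and 0 were higher in *A. cahirinus* and 1 at each day in *M. musculus*, and none lower. The latter was *Cd4*, with means of 39.4 at D0 and 192, 146, 100.3 and 105 after injury, whereas *Cd8a* was at 25.5 at D0 and at 20.9, 19.9, 13.2 and 17.9 later. T cells also carry *Cxcr4*, and the part of these markers in its result was not tested. Of 3 ear cartilage markers in *A. cahirinus*, 1 was higher at each day and 2, 1, 1 and 2 were lower, and of 4 in *M. musculus*, 2, 2, 1 and 1 were higher and 1 at each day lower. Of 5 fibroblast markers, which also cover cells that make *Cxcl12*, 1, 4, 4 and 4 were higher and 1, 1, 1 and 0 lower in *A. cahirinus*, and 4 were higher at each day in *M. musculus*. Of 5 epidermal markers, 4, 2, 2 and 2 were higher and 0, 0, 2 and 2 lower in *A. cahirinus*, whereas 3, 1, 1 and 1 were higher and 0, 0, 1 and 2 lower in *M. musculus*. Of 5 housekeeping genes, 4, 4, 4 and 2 were higher and 1 at each day lower in *A. cahirinus*, and 4, 3, 2 and 1 were higher and 1, 1, 1 and 2 lower in *M. musculus*.

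The gene pairs whose 8 log2 fold changes were closest to those of each gene were found over 9962 pairs whose recovered mean reached 10, by the root mean square difference over the 4 days and 2 species. For *Ccl7* they were *Ccne1* (0.32) and *Adgre1* (0.36), for *Ccl2* *Kcnn4* (0.38) and *Ms4a7* (0.55), and for *Cxcl1* *Hbegf* (0.64) and *Epgn* (0.72). For *Cxcl12* they were *Lipa* (0.22) and *Gng11* (0.31), and for *Cxcl14* *Btbd2* and *Nckap5* (0.27 each). For the receptors they were *Bcl3* (0.21) and *Ltb* (0.24) with *Ccr2*, *Slc7a7* (0.30) and *Coro1a* (0.32) with *Cxcr4*, and *Ifi202b* (1.17) and *Tmem45b* (1.19) with *Cxcr2*. The nearest pair was within 0.64 for each of these genes but *Cxcr2*.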

How the data were processed

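The authors sequenced ear RNA as 50-base paired, strand-specific libraries, mapped reads with RSEM to an *A. cahirinus* assembly and to mm10, and compared each day with D0 by EBSeq. Their deposited tables hold posterior probabilities (scores from 0 to 1) and 2 fold changes per gene, as ratios of D0 over the later day. These comparison columns are the only values per gene in the files and were therefore used. The BLASTN table deposited by the authors gives identity in percent, and lengths and bit scores, recorded as other units.

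*M. musculus* gene numbers were named by annotation order, after matching with minimap2 2.31 (1621 of 1636 held-out numbers right, 356 more not placed). *A. cahirinus* components were taken by top bit score below 99% identity. Group means were recovered from the 2 fold changes, and reads per library from the steps between values (at most 0.05 solutions expected by chance). Size factors were 0.652 to 1.38 for *A. cahirinus* and 0.643 to 1.54 for *M. musculus*. The design had assumed pooled values, so limma 3.58.1 on log2(normalised reads + 1), for a mean of at least 1 and with Benjamini-Hochberg adjustment, and leaving libraries out, were added after seeing the data.

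The 10 genes and the lists were chosen with earlier results of these data known. List genes are named where called on at least 3 days in a species, with the highest or lowest mean log2 fold change. *M. musculus* values of *Il1b*, *Csf3r*, *Mpo*, *Pecam1* and *Cd163*, and the library values at D15, were added after they were seen. So were the *A. cahirinus* values of *Fcgr1* and *Il1a*. A few results on other genes are not reported here. Intervals of read ratios are exact and cover counting error only. Recovery and fits were tested on simulated data with Python 3.11.15, NumPy 2.4.6, pandas 2.3.3, SciPy 1.17.1 and R 4.3.3.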

Additional observations from a re-analysis of the deposited data

Results flagged for a closer look

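The change of *Ccl7* after injury differed between the species by limma at each day, being larger in *A. cahirinus*. It was 1 of the 4, 5, 6 and 5 genes that could be tested at D5 to D20, while 36.4%, 28.5%, 29.2% and 31.8% of all gene pairs tested differed. On the log2 scale the differences of the 4 days were 1.71, 1.37, 0.77 and 1.28 in turn, with 3 libraries in each group but *A. cahirinus* D15, which had 2. All libraries after injury lay above D0 in both species, so the difference is one of size. The D15 difference is the least firm, since it was lost with any of 4 libraries left out.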

How the results depend on the processing

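No paired analysis was possible because the labels carry no replicate numbers. The 8 counts of genes called kept within 1.5 times their value with a posterior probability of at least 0.99, a least log2 fold change of 1 and a least mean of 10, as did the 4 *A. cahirinus* counts with reciprocal best hits. With limma, chosen after seeing the data, the *M. musculus* D5 count was 4 of 6 that could be fitted. It was 9 of 10 by posterior probability, over a larger set, as fewer genes had reads. Among the same 6 genes, *Cxcl1* was called by the posterior probability alone and *Cxcl14* by neither. The number of genes whose change differed between species by limma ran from 1 to 2 at D5 and at D20, and from 0 to 1 at D15, with 1 library left out in turn, against 1 with all libraries. Counts by limma within a species stayed within 1.5 times. The mean difference between species turned its sign for *Cxcl1*, from −0.01 to 0.036 with a pseudocount of 1 and with summed components, and for *Cxcr4*, from 0.34 to −0.18 with summed components. The cause was not tested. With summed components the mean difference of *Cxcl5* was −1.63 in place of −2.68. With a least mean of 10 that of *Cxcr2* was 5.61, but over D5 and D10 only. At D15 and D20 its *A. cahirinus* means were 3.65 and 3.86, so those days dropped out. With limma on the recovered reads 5 log2 fold changes moved beyond the spread, with summed components 4 and relative to the median pair 3. Leaving out *M. musculus* D15 library 1 moved 2, and a pseudocount of 1 and the second fold change column moved 1 each. Few reads at D0 limit genes such as *Ccl2*, *Cxcl1* and *Cxcl5* in *M. musculus* and *Cxcl5* and *Cxcr2* in *A. cahirinus*, and groups without recovered reads had no test.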
